A study of Mus musculus with 3 samples.

Results

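The genes described here are 10 members of 3 interacting families of transcription regulators, chosen by name: the Id proteins Id1, Id2 and Id3, the E proteins Tcf3, Tcf4 and Tcf12, and the LIM-only (LMO) adaptors Lmo4 and Lmo2 with their partners Ldb1 and Lyl1. Each was measured by 1 probe set that is annotated with that symbol alone, so all 10 of the 10 genes have a value, out of 19518 genes in all. Where a gene had several such probe sets the brightest was to be used, but none of the 10 needed that choice. The list was drawn up with earlier results of these arrays known, and Id2 and Lmo4 are the members for which a difference had been seen before.

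The study asked which genes depend on the transcription factor PLZF, encoded by Zbtb16, in γδNKT cells, which are innate-like γδ T cells. There were 3 groups with 1 Affymetrix Mouse Gene 1.0 ST array each. The first was PLZFlu/lu (homozygous for luxoid, a point mutation of the PLZF gene), the next PLZF+/lu (heterozygous) and the last PLZF+/+ (wild type). All were sorted thymic cells of female C57Bl/6 mice, labelled adult, at 3 to 4 weeks of age. Mice of every genotype, PLZF+/+ included, were Rag1-/- and carried transgenes of the γδNKT TCR, and thymocytes were gated as CD4+CD8α-, not by the TCR or by PLZF. Neither the number of mice per array nor any pooling is given in the sources used here.

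Id proteins and E proteins share the helix-loop-helix surface through which they pair. E proteins bind DNA at the E-box, and Id proteins, which lack the basic region that contacts DNA, pair with E proteins and hold them off it. In the thymus E proteins keep T cell precursors in check until TCR signals raise Id3, while Id2 is known for its role in NK cells, innate lymphoid cells and effector T cells. LMO proteins consist of LIM domains and bind no DNA themselves. Ldb1 dimerises and ties LMO proteins to DNA-binding partners such as GATA factors and pairs of an E protein with Tal1 or Lyl1.

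The promoters of Id2 and Lmo4 are shown because these were the members whose intensity differed most between genotypes. RefSeq promoters (GRCm38.p6), which run from 250 bases before to 50 bases after a transcript start, were matched for 7 of the 10 genes and number 13. The sequences run 5′ to 3′ on the minus strand, on which both genes lie. Capitals mark the E-box letters CANNTG, where N is any base, and a match to this pattern on either strand is also a match on the other. The positions are Id2 at chr12:25096043-25096342, a distal Lmo4 start at chr3:144205206-144205505 and a proximal Lmo4 start at chr3:144202347-144202646. Another Lmo4 window overlaps the proximal one and holds the same match.
Id2: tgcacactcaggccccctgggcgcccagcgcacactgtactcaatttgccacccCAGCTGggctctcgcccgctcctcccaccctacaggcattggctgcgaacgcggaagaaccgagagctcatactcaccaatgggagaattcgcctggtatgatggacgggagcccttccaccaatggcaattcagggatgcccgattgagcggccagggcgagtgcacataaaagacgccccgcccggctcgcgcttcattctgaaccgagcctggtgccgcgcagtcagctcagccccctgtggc
Lmo4 distal: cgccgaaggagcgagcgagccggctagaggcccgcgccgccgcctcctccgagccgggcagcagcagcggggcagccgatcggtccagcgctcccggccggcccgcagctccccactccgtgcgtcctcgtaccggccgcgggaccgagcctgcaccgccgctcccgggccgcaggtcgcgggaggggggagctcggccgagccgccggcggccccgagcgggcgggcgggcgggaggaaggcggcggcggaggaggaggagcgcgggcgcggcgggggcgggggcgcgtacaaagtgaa
Lmo4 proximal: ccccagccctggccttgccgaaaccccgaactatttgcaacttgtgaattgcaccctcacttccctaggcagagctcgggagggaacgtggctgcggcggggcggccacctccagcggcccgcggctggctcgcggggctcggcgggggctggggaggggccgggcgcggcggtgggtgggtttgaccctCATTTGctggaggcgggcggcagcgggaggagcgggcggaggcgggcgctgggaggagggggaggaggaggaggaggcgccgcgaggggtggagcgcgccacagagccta
The Id2 window held 1 match, CAGCTG, which begins 196 bases before the start. The proximal Lmo4 window held 1, CATTTG, beginning 60 bases before the start, and the distal window held 0. Such letters are common: CANNTG occurred in 9 of the 13 windows of these genes (69.2%) and in 72.3% of all 32851 promoter windows, and CAGCTG in 16.3% of all windows. A match is a description of the letters only, and the arrays do not show which Lmo4 start was used.

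As a check of the labels, Zbtb16 had an intensity of 2890 in PLZFlu/lu, 6143 in PLZF+/lu and 8796 in PLZF+/+ cells. A point mutation leaves a transcript that can hybridise, so this is not a full check. The array medians were between 159.7 and 161.8, and 95% of the values of 1033 olfactory receptor probe sets, receptors of the nose with no known use in T cells, lay below 108. The T cell genes Cd3d, Cd3e, Cd3g, Cd247 and Cd4 lay above that level in every genotype, while Klrb1c, which encodes the NK cell marker NK1.1, was at 29.5 on all 3 arrays, so that this marker of the labelled cells was not above background. Single arrays give no replicate spread, hence no p-values, and a gap over 2-fold serves only as a criterion of size. Intensity levels are not compared between genes, only differences between genotypes, since probe sets differ in brightness for the same amount of RNA.

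Of the 10 genes, Id2 and Lmo4 were more than 2-fold lower in PLZFlu/lu than in PLZF+/+ cells, and none was more than 2-fold higher. Over all 19518 genes, 0.43% differed by more than 2-fold between these genotypes (84 genes), with 0.272% lower and 0.159% higher in PLZFlu/lu. Among genes above the olfactory receptor level on each array, as all 10 were, the share was 0.663%. Past 1.5-fold the same 2 of the 10 genes counted, beside 1.43% of all genes, and past 3-fold Lmo4 alone, beside 0.123%. Since Id2 and Lmo4 were known to differ when the list was made, their count is a description. The other 8 genes differed by 1.20-fold or less, with 3 higher, 1 lower and 4 equal in PLZFlu/lu. The median log2 difference of the 10 genes, PLZFlu/lu minus PLZF+/+, was 0.00, as was that of all genes. Of all genes, 3308 were higher, 4866 lower and 11344 equal in this comparison. Values that are identical between arrays are a feature of the deposited table: 46.8% of all genes had the same value on all 3 arrays, and 34.2% of the 11768 genes that lay above the olfactory receptor level on each array.

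**Figure D1:**
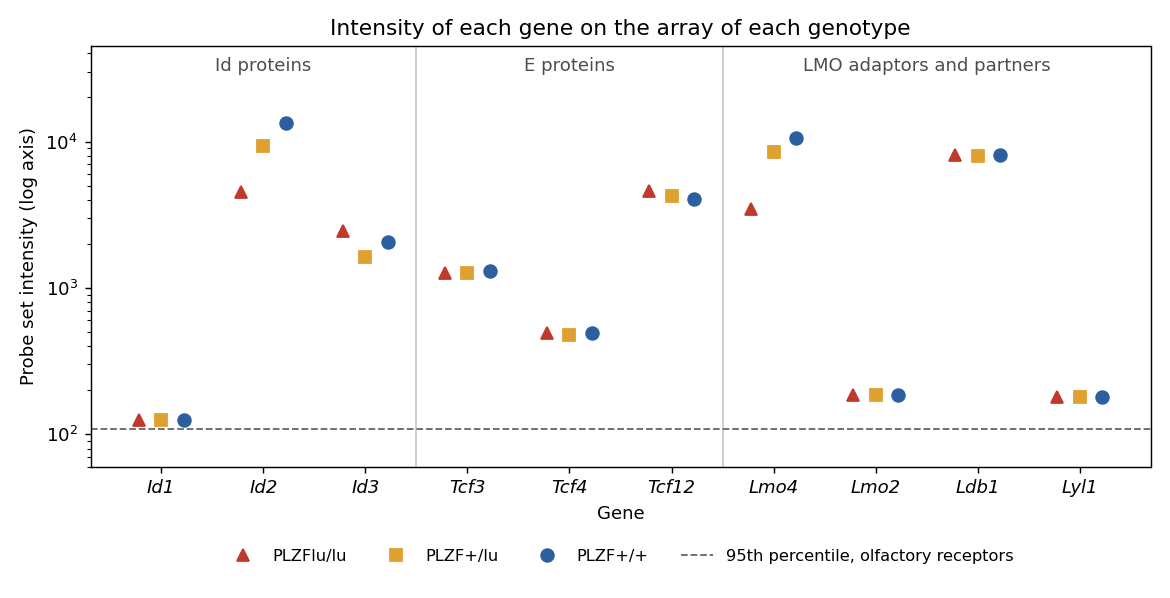
Probe set intensity (log axis) of the 10 genes, grouped by family, each a single array without error bars. Triangles are PLZFlu/lu, squares PLZF+/lu and circles PLZF+/+, and the dashed line is the olfactory receptor level of 108. Id2 and Lmo4 step up in this order of genotypes, the Id3 square lies lowest of its 3 symbols, and the symbols of Id1, Lmo2, Ldb1 and Lyl1 lie level.

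Among the Id proteins, Id2, the inhibitor of E proteins of NK and effector lymphocytes, had an intensity of 4554 in PLZFlu/lu, 9322 in PLZF+/lu and 13326 in PLZF+/+ cells. It thus stood at 34.2% of the PLZF+/+ level in PLZFlu/lu cells and at 70.0% in PLZF+/lu cells. The log2 difference was -1.55 for PLZFlu/lu against PLZF+/+, a 2.93-fold lower intensity, and 19 of the 19518 genes were lower by more. Against PLZF+/lu, Id2 in PLZFlu/lu was 2.05-fold lower, just past the threshold. In PLZF+/lu against PLZF+/+ the difference was 1.43-fold, or -0.52 on the log2 scale. On the linear scale the PLZF+/lu value of 9322 lay close to 8940, the midpoint of the other genotypes.

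Id3, the Id protein that TCR signals induce, did not follow Id2. Its intensity was 2461 in PLZFlu/lu, 1628 in PLZF+/lu and 2052 in PLZF+/+ cells, so that the heterozygous cells had the lowest value. The PLZFlu/lu value was 1.20-fold above that of PLZF+/+ and 1.51-fold above that of PLZF+/lu. The PLZF+/lu value was 1.26-fold below that of PLZF+/+. None of these differences passed 2-fold, and their signs held under quantile normalization, median centring and cyclic loess (0.26 to 0.27 on the log2 scale for PLZFlu/lu minus PLZF+/+, and -0.35 to -0.30 for PLZF+/lu minus PLZF+/+). The same order, higher in PLZFlu/lu and lower in PLZF+/lu than in PLZF+/+, was found for 429 of the 19518 genes, and with both differences at least as large as those of Id3 for 1 other gene, the histone gene H3c4. These counts were made after the values were seen.

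Id1, the remaining Id protein, had the same value on all 3 arrays, 126, close to the olfactory receptor level of 108. No difference was detected for it at this signal.

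The E proteins differed little. Tcf12, which encodes HEB, the E protein of developing thymocytes, was at 4573 in PLZFlu/lu, 4262 in PLZF+/lu and 4043 in PLZF+/+ cells. This order is opposite to that of Id2, but PLZFlu/lu was only 1.13-fold above PLZF+/+ (0.18 in log2 units), with the same sign under each of the scalings tried. Over all genes, 11.7% differed by more than Tcf12 between PLZFlu/lu and PLZF+/+.

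Tcf3, which encodes the E2A proteins E12 and E47, was at 1270 in PLZFlu/lu, 1269 in PLZF+/lu and 1314 in PLZF+/+ cells, with PLZFlu/lu minus PLZF+/+ at -0.05 in log2 units. Tcf4, which encodes E2-2, the E protein of plasmacytoid dendritic cells, was at 496 in PLZFlu/lu, 478 in PLZF+/lu and 496 in PLZF+/+ cells. With 1 array each, differences of this size cannot be told from none.

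Lmo4, the LMO adaptor, was at 3485 in PLZFlu/lu, 8497 in PLZF+/lu and 10656 in PLZF+/+ cells. PLZFlu/lu cells thus had 32.7% of the PLZF+/+ intensity and PLZF+/lu cells 79.7%. The fold between the outer genotypes was 3.06, a log2 difference of -1.61, and 17 of all genes were lower in PLZFlu/lu by more. Most of this lay between the 2 mutant genotypes, where PLZFlu/lu was 2.44-fold below PLZF+/lu (-1.29 on the log2 scale). PLZF+/lu was 1.25-fold below PLZF+/+ (-0.33). Here the PLZF+/lu value of 8497 lay above 7071, the linear midpoint of the outer genotypes.

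Lmo2, the LMO adaptor of blood stem and progenitor cells, was at 185 on all 3 arrays. Ldb1, which joins LMO proteins to their partners, was at 8036 in PLZFlu/lu, 8030 in PLZF+/lu and 8036 in PLZF+/+ cells. In PLZFlu/lu and PLZF+/+ this is 74.5 times the olfactory receptor level, and its 3 values were nearly level. Lyl1, a basic helix-loop-helix factor that pairs with E proteins in progenitors, was at 181 in PLZFlu/lu, 181 in PLZF+/lu and 180 in PLZF+/+ cells. The values of Lmo2 and Lyl1 lay within 1.71 times the olfactory receptor level, so that a change of the little RNA they may represent could go unseen.

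Set side by side, Id2 and Lmo4 differed mainly in the heterozygous cells. Counting the log2 distance up from PLZFlu/lu (0) as a share of that to PLZF+/+ (1), PLZF+/lu lay at 0.67 for Id2 and at 0.80 for Lmo4. Among the 53 genes more than 2-fold lower in PLZFlu/lu than in PLZF+/+, the median position was 0.39, and for 18 of the 53 PLZF+/lu lay nearer to PLZF+/+. Lmo4 was second and Id2 eighth of the 53 in nearness of PLZF+/lu to PLZF+/+, a description without a test. In PLZF+/lu against PLZF+/+ none of the 10 genes passed 2-fold, as 0.133% of all genes did. In PLZFlu/lu against PLZF+/lu, Id2 and Lmo4 did, both lower, beside 0.123% of all genes in either direction and 0.0769% lower. Past 1.5-fold Id3, higher in PLZFlu/lu, counted as well (0.533% of all genes), and past 3-fold none of the 10 did, nor any gene (0.0%). These comparisons share arrays and are not independent of each other.

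**Figure D2:**
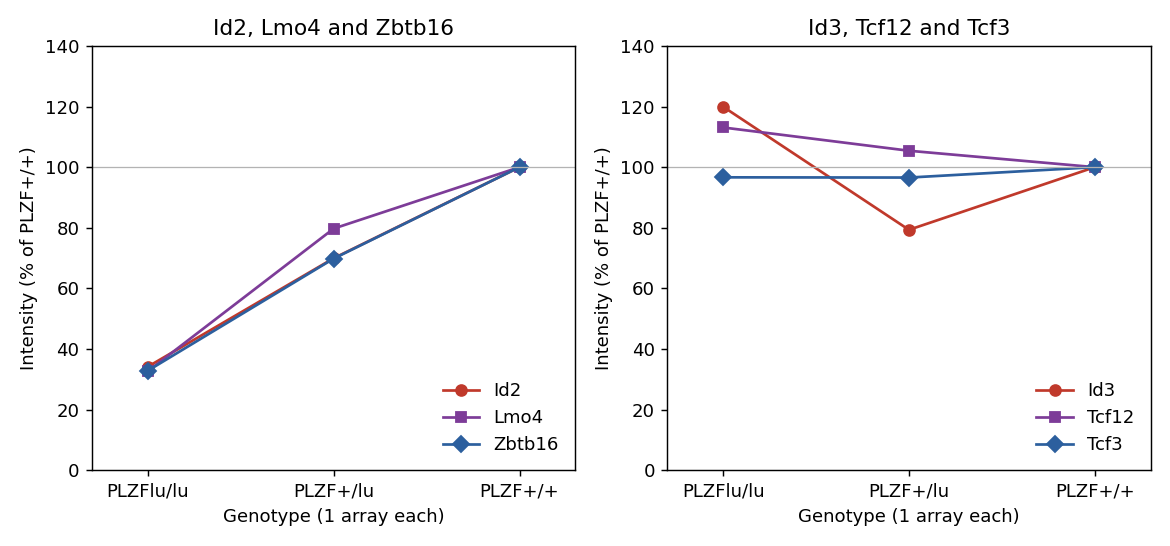
Intensity as a percentage of the PLZF+/+ array, by genotype with 1 array each, for Id2, Lmo4 and Zbtb16 on the left and Id3, Tcf12 and Tcf3 on the right. Lines only join the values of a gene; Id2 stands at 34.2% in PLZFlu/lu and 70.0% in PLZF+/lu, where its symbol is hidden by that of Zbtb16, and Id3 is lowest in PLZF+/lu.

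The genes whose pattern was most like that of Id2 and of Lmo4 were found by the distance between their log2 differences from PLZF+/+ in both mutant genotypes, over 2 differences from 3 arrays and among 11767 other genes above the olfactory receptor level. Closest to Id2 was Zbtb16 itself (distance 0.06), which stood at 32.9% of the PLZF+/+ level in PLZFlu/lu and at 69.8% in PLZF+/lu cells. Next were Nkd1, an inhibitor of Wnt signalling, at 0.17, and Lmo4 at 0.20. Nkd1 was at 307 in PLZFlu/lu, 534 in PLZF+/lu and 824 in PLZF+/+ cells. Closest to Lmo4 were Zbtb16 (0.19), Id2 (0.20) and Aqp9, a channel for water and glycerol (0.26). Aqp9 was at 402 in PLZFlu/lu, 1054 in PLZF+/lu and 1129 in PLZF+/+ cells. With 2 differences per gene, such likeness is a description only.

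**Figure D3:**
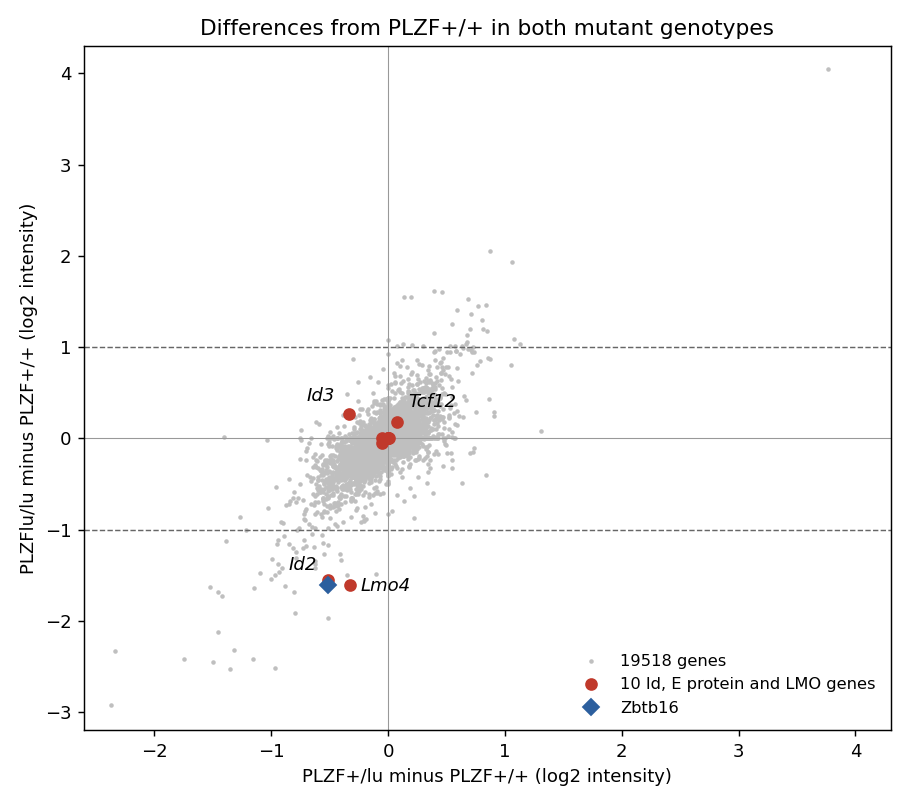
Log2 intensity difference of PLZFlu/lu from PLZF+/+ against that of PLZF+/lu from PLZF+/+ for 19518 genes, with the 10 genes in red and Zbtb16 as a blue diamond; both axes use the same PLZF+/+ array, so the slope of the cloud is no result. Dashed lines mark 2-fold, Id2 and Lmo4 lie below the lower one beside Zbtb16, and Id3 lies up and to the left of the cloud.

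In bulk RNA, fewer cells of a type and less RNA per cell cannot be told apart, and this applies to Id2 and Lmo4. Markers of CD4+CD8+ thymocytes, which the CD4+CD8α- gate was set to leave out, are given beside these genes for that reason. Of 7 measured markers, 6 lay above the olfactory receptor level, their summed intensity was 5317 in PLZFlu/lu, 4418 in PLZF+/lu and 3319 in PLZF+/+ cells, and 4 were higher and 0 lower in PLZFlu/lu than in PLZF+/+. Cd8b1, the CD8 beta chain, accounted for most of this, at 2958 in PLZFlu/lu, 2263 in PLZF+/lu and 1290 in PLZF+/+ cells, the only marker of them past 2-fold. Cd8a was at 601 in PLZFlu/lu, 519 in PLZF+/lu and 369 in PLZF+/+ cells, whereas Ptcra, the pre-TCR alpha chain, was at 167 on all 3 arrays and Rag2 no brighter than 51.2. Cd1d1, another marker on this list, was at 1052 on all 3 arrays. Rag1 was at 278 in PLZFlu/lu, 211 in PLZF+/lu and 229 in PLZF+/+ cells. Mice of every genotype were Rag1-/-, so its probe set reads a disrupted gene, and its order is a description only. Over all 19518 genes, 3308 were higher, 4866 lower and 11344 equal in PLZFlu/lu against PLZF+/+. The part of the CD4+CD8+ thymocyte markers in the differences of Id2 and Lmo4 was not tested. Of 44 measured markers of 7 other populations (early thymocytes, B cells, plasmacytoid dendritic cells, myeloid cells, endothelium, thymic epithelium and erythroid cells), 18 lay above the olfactory receptor level. Of these 18, 11 were equal in PLZFlu/lu and PLZF+/+, 3 were higher and 4 lower, and the widest gap was 1.18-fold, in Itgam. Of the 11768 genes above that level on each array, 5287 were equal. Markers of a population disagreed: Cd79b was at 1406 in PLZFlu/lu, but Cd79a and Ms4a1 lay below the level. Likewise Ccr9 was at 12274 in PLZFlu/lu, but Spib lay below. A marker above the level thus does not show that its population was present.

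The surroundings of the 3 families were followed in 4 lists of 77 measured genes together, of which 20 were higher, 25 lower and 32 equal in PLZFlu/lu, with a median log2 difference of 0.00. Only Zbtb16, which is the mutated gene, passed 2-fold, as 0.43% of all genes did. Over all 19518 genes, 3308 were higher, 4866 lower and 11344 equal in PLZFlu/lu against PLZF+/+. Among the 11768 genes above the olfactory receptor level on each array, 2285 were higher, 4196 lower and 5287 equal. These lists, like the members, were chosen with earlier results known.

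Of 26 other helix-loop-helix factors, which include Id4, Myc, Max and Tal1, 5 were higher and 9 lower in PLZFlu/lu, and none passed 2-fold. The widest gaps were in Bhlhe41, which lay below the olfactory receptor level on each array, in Hey1, a target of Notch, at 123 in PLZFlu/lu against 150 in PLZF+/+, and in Tfe3, a lysosome and metabolism regulator, at 350 in PLZFlu/lu against 405 in PLZF+/+. Tal1, a partner of E proteins and Lmo2 in progenitors, showed 149 in PLZFlu/lu against 146 in PLZF+/+ cells. Id4 lay below the olfactory receptor level on each array.

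Of 18 measured partners of LMO and LDB proteins, 2 were higher, 6 lower and 10 equal in PLZFlu/lu. Gata3, the GATA factor of T cells, was at 3175 in PLZFlu/lu, 3260 in PLZF+/lu and 4297 in PLZF+/+ cells, and PLZFlu/lu minus PLZF+/+ came to -0.44 in log2 units. Unlike Id2 and Lmo4, its heterozygous value lay next to that of PLZFlu/lu. Ssbp3, which binds Ldb1 and protects it from degradation, was at 2920 in PLZFlu/lu, 3079 in PLZF+/lu and 3506 in PLZF+/+ cells. Rlim, the ubiquitin ligase that acts on Ldb1, was at 1343 on all 3 arrays. Gata1 lay below the olfactory receptor level on each array, and so did Lmo1, Lmo3 and Ldb2, the family members outside the 10 genes.

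Of 20 genes that act upstream of Id genes, 6 were higher, 8 lower and 6 equal in PLZFlu/lu, and none passed 2-fold. Smad7, an inhibitor of TGFβ and BMP signalling that these signals induce, came closest, at 596 in PLZFlu/lu, 406 in PLZF+/lu and 309.5 in PLZF+/+ cells, or 1.92-fold. Nab2, a corepressor of Egr proteins that they induce, was at 530 in PLZFlu/lu, 557 in PLZF+/lu and 906 in PLZF+/+ cells, 1.71-fold lower in PLZFlu/lu than in PLZF+/+. Egr1, which links TCR signals to Id3, was at 173 in PLZFlu/lu, 199 in PLZF+/lu and 247 in PLZF+/+ cells. Egr2, a related factor, was at 158 in PLZFlu/lu, 173 in PLZF+/lu and 208 in PLZF+/+ cells. PLZF+/lu was lowest, as for Id3, in 3 of the 20 genes (Smad1, Bmpr2 and Nfatc2) and lay between the other genotypes in 11, Egr1, Egr2 and Nab2 among them. The same places were not counted over all genes, so these counts only describe the list. Whether any of these genes bears on the Id3 values was not tested.

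Over all 19518 genes, 3308 were higher, 4866 lower and 11344 equal in PLZFlu/lu against PLZF+/+. Of 15 measured genes known as targets of E proteins in thymocytes, 9 were higher, 2 lower and 4 equal in PLZFlu/lu. The list does not separate genes that E proteins raise from genes that they lower, so this count is no measure of E protein activity. The 2 lower ones were Zbtb16, which is the mutated gene, and Cdk6, a kinase of cell cycle entry, at 2320 in PLZFlu/lu against 2643 in PLZF+/+. Without Zbtb16 the median log2 difference was 0.07, and 0.07 to 0.11 under the other scalings, against 0.00 for all genes as deposited. The widest gap among the 9 higher genes was in Dntt, which adds bases to TCR junctions, at 210 in PLZFlu/lu, 157 in PLZF+/lu and 162 in PLZF+/+ cells, or 1.30-fold. Foxo1, a regulator of T cell homeostasis, was at 5967 in PLZFlu/lu, 5638 in PLZF+/lu and 5217 in PLZF+/+ cells. Cxcr4, a chemokine receptor of immature thymocytes, was at 1682 in PLZFlu/lu, 1540 in PLZF+/lu and 1485 in PLZF+/+ cells. Il7r, a survival receptor, showed 12140 in PLZFlu/lu against 11857 in PLZF+/+ cells, a gap of 1.02-fold. Dntt, Rag1, Rag2 and Ptcra are markers of CD4+CD8+ thymocytes too, and were counted in both lists, so the lists are not independent. Mice of every genotype were Rag1-/-, so the Rag1 probe set, among the 9 higher, reads a disrupted gene.

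**Figure D4:**
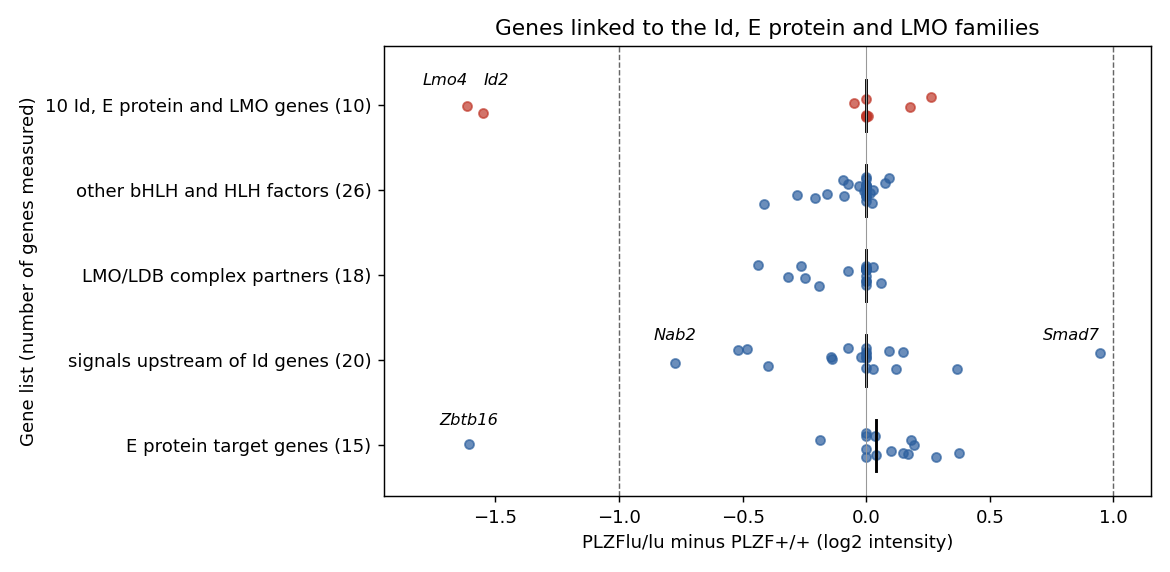
Log2 intensity difference, PLZFlu/lu minus PLZF+/+, for the 10 genes (red) and the measured genes of 4 linked lists (blue), with 1 point per gene, spread vertically at random within a list to separate them. Black bars are the medians and dashed lines mark 2-fold; Id2, Lmo4 and Zbtb16 lie past the lower line, and Smad7 just short of the upper one.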

How the data were processed

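RNA of CD4+CD8α- thymocytes was measured on 3 arrays, 1 per genotype, grouped by the genotype label. The authors processed the scans in GenePattern 3.21 (ExpressionFileCreator, MultiplotPreprocess, Multiplot), removed normalization controls and deposited linear intensities of 24800 probe sets for each array. The build named in the notes is mm 8. The handling of background, probe summary and scaling was not given in the sources used here. Unmatched columns numbered 0.

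Exactly 1 gene was annotated for 21065 probe sets, several for 1187 and none for 2548. Symbols were updated to RefSeq (GRCm38.p6) for 20983. A gene is given by its brightest probe set with 1 gene. Intensities were compared as log2 differences, PLZFlu/lu or PLZF+/lu minus the other group, counted past 2-fold. Values within 1e-06 were taken as equal. The background is the 95th percentile of olfactory receptor probe sets. No test was run, since 1 array per genotype gives no error, so that precision is limited by the number of arrays.

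The members, the lists and the rule for named genes were chosen with earlier results of these data known. Named genes are the members, in each list those past 2-fold or otherwise the 3 with the widest gap, and for Id2 and Lmo4 the 3 of most similar pattern. Bhlhe41 and Gata1, named by this rule, are given without a fold since they lay below background. Other list genes (Id4, Tal1, Rlim, Egr2, Cdk6, Dntt, Foxo1, Cxcr4, Il7r, Smad1, Bmpr2, Nfatc2, Itgam, H3c4 and the dim LMO members) were named after their values were seen. The same holds for the markers Cd1d1, Cd79a, Cd79b, Ms4a1, Ccr9 and Spib.

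The alternatives were quantile normalization, median centring, cyclic loess, adding 32 to each intensity, averaging a gene's probe sets, leaving out dim genes, a baseline averaged over PLZF+/+ and PLZF+/lu, and thresholds of 1.5-fold and 3-fold. Quantile normalization and cyclic loess used limma 3.58.1 in R 4.3.3. The rest, median centring included, used Python 3.11.15, numpy 2.4.6, pandas 2.3.3 and matplotlib 3.10.9.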

Additional observations from a re-analysis of the deposited data

How the results depend on the processing

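Id2 and Lmo4 stayed more than 2-fold lower in PLZFlu/lu than in PLZF+/+ under each scaling, with 32 added, without dim genes, with probe sets averaged and with PLZF+/+ and PLZF+/lu averaged as the baseline. Of 70 values of single genes under these alternatives, 70 kept their side of 2-fold, but averaging probe sets and leaving out dim genes could not change a member, since each has 1 probe set and lies above background. Their log2 differences over the 3 scalings and the deposited values ran from -1.56 to -1.55 for Id2 and from -1.61 to -1.58 for Lmo4. Counts changed with the threshold alone. Past 3-fold, 1 of the 10 genes was left between PLZFlu/lu and PLZF+/+ (Lmo4) and 0 between PLZFlu/lu and PLZF+/lu, beside 0.123% and 0.0% of all genes. Past 1.5-fold, 3 of the 10 genes counted between PLZFlu/lu and PLZF+/lu (Id2, Lmo4 and Id3), against 2 past 2-fold and beside 0.533% of all genes. Between PLZFlu/lu and PLZF+/+, 3 of the 77 linked genes counted past 1.5-fold (Zbtb16, Smad7 and Nab2), beside 1.43% of all genes. Past 2-fold 1 counted, Zbtb16, which is the mutated gene, beside 0.43% of all genes. Against the averaged baseline, differences shrink by construction wherever PLZF+/lu lies between. Tcf4, Lmo2, Ldb1 and Id1, equal in the outer genotypes as deposited, moved by less than 0.05 on the log2 scale under the scalings, and of these Ldb1 and Id1 took both signs. Scaling also moves genes with tied values off 0, so counts of higher and lower genes in a list are given as deposited only. No paired analysis was possible because each genotype has 1 array. Low signal limits Id1, Lmo2 and Lyl1.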
